A study of Rattus norvegicus with 6 samples.

Results

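The microRNAs (miRNAs) miR-134, miR-329, miR-381 and miR-485 were followed in rat medial prefrontal cortex, a frontal brain area with a part in mood and in responses to stress. Members were all annotated rows of the deposited miRNA table that carry 1 of these 4 names with any arm suffix, which gave 8 of 1465 rows: the 5p and the 3p arm of each of 4 hairpins. No predicted row was taken. Small RNA libraries were made from total RNA of 6 rats, 1 library per rat. The 3 Control rats lived undisturbed for 4 weeks but for routine care. The 3 rats with chronic mild stress (CMS), used in rodents to model depression, met these stressors over 4 weeks: restraint, foot shock, tail clipping, cage tilt, reversal of light and dark, swimming in cold water, and withdrawal of food or of water, in random order. Strain, sex and age of the rats are not given in the labels. All 6 samples are whole tissue, so fewer cells of a type and less RNA per cell cannot be told apart in any value below.

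A miRNA is cut from a hairpin precursor, and 1 of its arms, 5p or 3p, is usually kept in the silencing complex, where bases 2 to 8 (the seed) pair with messenger RNAs that are then repressed. The genes of these miRNAs lie in the cluster from miR-379 to miR-410, part of the imprinted Dlk1-Dio3 region, where the maternal copy gives rise to the miRNAs. In cultured rat hippocampal neurons the transcription factor Mef2 is known to switch on the cluster after neuronal activity, and miR-134, miR-329 and miR-381 are known to take part in the activity-dependent growth of dendrites there. miR-134 is known to limit the size of dendritic spines in rat hippocampal neurons by repressing the kinase gene Limk1, and miR-485 is known to act on the synaptic vesicle gene Sv2a in the same cells.

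The mature sequences show what each arm can pair with, and all 8 arms matched an entry of RefSeq (build GRCr8, chromosome 6, plus strand). They are printed 5′ to 3′ with the seed in capitals.
miR-134-5p: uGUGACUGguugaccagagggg
miR-134-3p: cUGUGGGCcaccuagucaccaa
miR-329-5p: aGAGGUUUucugggucucuguuuc
miR-329-3p: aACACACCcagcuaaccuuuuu
miR-381-5p: aGCGAGGUugcccuuuguauau
miR-381-3p: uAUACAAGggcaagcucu
miR-485-5p: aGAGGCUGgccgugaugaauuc
miR-485-3p: cAUACACGgcucuccucucuuc
The 8 arms carry 8 different seeds, so no member shares a seed with another member. Outside the members, the seed of miR-381-3p is also that of miR-539-3p from the same cluster, and the seed of miR-329-3p is also that of miR-362-3p, whose gene lies on chromosome X.
miR-539-3p: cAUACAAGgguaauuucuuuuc
miR-362-3p: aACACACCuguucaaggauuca
Among annotated miRNAs of the table, the closest sequence to miR-381-3p is that of miR-300-3p, its neighbour in the cluster, which differs by 1 base over the 18 bases compared. The difference is A4G, counted from 1 at the 5′ end of miR-381-3p, and it lies in the seed.
miR-300-3p: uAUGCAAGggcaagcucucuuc
For the other 7 arms the closest annotated sequence differed by between 4 and 9 bases. Among the 41 miRNA genes from Mir379 to Mir410 in the RefSeq gene table, Mir329 is gene 9, Mir381 gene 21, Mir134 gene 29 and Mir485 gene 31.

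Values are the authors' normalized expression values in whole numbers, with library sums of 709674 to 736078. Sequencing depth is unknown. Control 1 stood apart: its median absolute log2 distance from the mean of the other Controls was 0.389 over the 657 rows tested, against 0.29 for Control 2 and 0.218 for Control 3. Marker miRNAs of neurons (4 of 4 with a value in every library) summed to 82108 in Control 1, to 112030 and 111618 in Controls 2 and 3, and to between 92878 and 100441 in CMS. For astrocytes the list held 1 miRNA, miR-21-5p, which is not particular to astrocytes and cannot stand for them alone. It was at 2095 to 2151 in Control and 3204 to 3581 in CMS, and was the 1 marker of all lists that passed the limma test described below. The microglial and immune markers (3 of 4 with a value in every library) summed to 797 to 830 in Control and 871 to 1230 in CMS. Summed levels of the oligodendrocyte markers (3 of 3 with a value in every library) were 1495 to 1751 in Control and 1565 to 2599 in CMS, those of the vascular markers (3 of 3) 16998 to 21069 and 18140 to 28976, those of the blood markers (3 of 3) 171 to 340 and 255 to 438, and those of the choroid plexus and epithelial markers (3 of 4) 24 to 37 and 35 to 57. CMS 1 had the highest sum of the 6 libraries for the oligodendrocyte, the microglial and immune, the vascular and the blood markers. In CMS 2 and CMS 3 these sums were 1565 and 1812, 871 and 1157, 18140 and 21686, and 255 and 324, in that order. No marker was at 0 in all libraries, and the part of these cell types in the results below was not tested.

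miR-381-3p was the most abundant, with a mean of 3933.3 over the 6 libraries and rank 37 among the 502 annotated miRNAs that had any value. It was followed by miR-329-5p (mean 893.8, rank 89), miR-329-3p (449.5, rank 128), miR-134-5p (rank 141), miR-485-3p (260.8, rank 159) and miR-485-5p (209.3, rank 165). The minor arms miR-134-3p (mean 4.83) and miR-381-5p (mean 1.33) were near the smallest value the table can hold, which is 1. Neighbours in this order did not overlap across libraries except miR-329-3p with miR-134-5p, miR-134-5p with miR-485-3p, and miR-485-3p with miR-485-5p. The members together held 0.862% to 1.05% of the library sum in Control and 0.643% to 0.797% in CMS. Most of that sum was miR-381-3p, with 65.7% to 72.4% in Control and 52.1% to 63.1% in CMS. Without it, the members summed to 1752, 2418 and 2386 in Controls 1 to 3 and to 2263, 2014 and 2299 in CMS 1 to 3, and the groups overlapped.

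**Figure D1:**
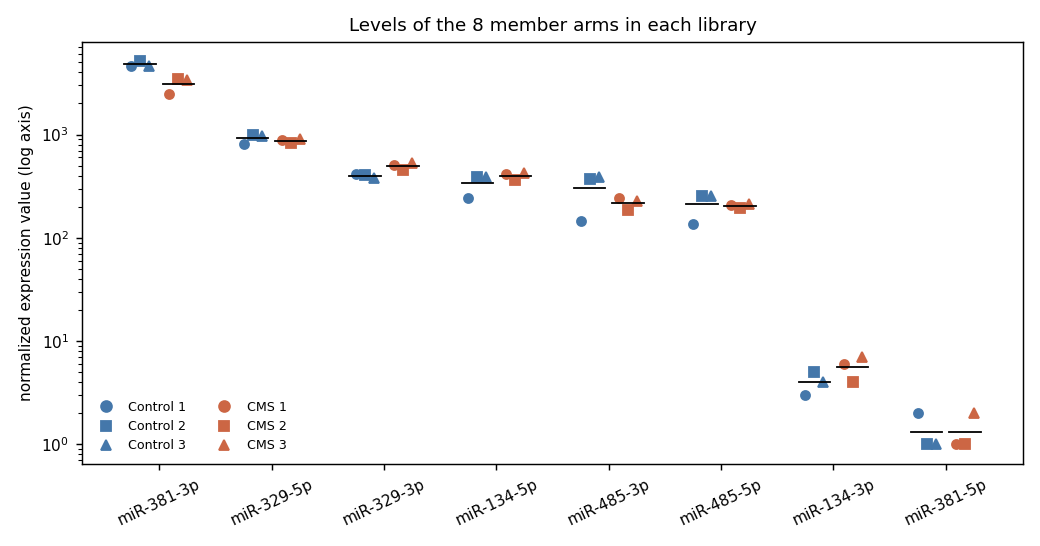
Normalized expression value (log axis) of each of the 8 member arms in the 3 Control (blue) and 3 CMS (orange) libraries, with marker shapes for the replicate number and a black line at each group's mean. miR-381-3p sits between 4567 and 5160 in Control and between 2466 and 3449 in CMS, and Control 1 lies below the other Controls for miR-134-5p and for both arms of miR-485.

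The design asks whether the level of a miRNA differs between stressed and undisturbed rats. Differences were tested with limma-trend on log2(value + 1) over all 657 rows that had a value (1 or more) in 3 or more libraries. None of the 8 member arms passed at a Benjamini-Hochberg adjusted p under 0.05, while the same fit called 4.11% of all rows. At an unadjusted p under 0.05 there were 2 members, miR-381-3p lower and miR-329-3p higher in CMS, where 23.3% of all rows were at that level. The same 2 arms were those whose groups did not overlap, 1 of 8 lower (6.24% of all rows) and 1 of 8 higher (19.6% of all rows). Each of these counts rests on 1 or 2 arms. The median log2 difference was 0.00 over the 8 members and 0.08 over all rows tested.

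miR-381-3p, the main arm of its hairpin, had values of 4592, 5160 and 4567 in Controls 1 to 3 and of 2466, 3449 and 3366 in CMS 1 to 3. Every CMS library was below every Control library, with CMS 1 the lowest. The group means were 4773 ± 335.4 and 3093.7 ± 545.2 (SD, n = 3 each), and CMS was at 0.648 times the Control level. The log2 difference was -0.64 ± 0.16 (SE), with a 95% interval from -1.02 to -0.26 for this arm taken alone, and it did not pass over all rows (limma adjusted p = 0.0819). It stayed negative without any 1 library, between -0.73 and -0.48. Control 1, which stood apart in other members, was within the range of Controls 2 and 3 here. The minor arm miR-381-5p was at 2, 1 and 1 in Control and at 1, 1 and 2 in CMS, where rounding leaves no room for a comparison.

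miR-329 showed its 2 arms at comparable levels. The log2 level of the 3p arm, log2(value + 1), was 8.70, 8.67 and 8.58 in Controls 1 to 3 and 9.00, 8.83 and 9.06 in CMS 1 to 3. All CMS libraries were above all Control libraries, including Control 1. The mean values were 400.0 ± 17.1 and 499.0 ± 41.1 (SD, n = 3 each), a 1.25-fold higher level in CMS that did not pass (log2 difference 0.32 ± 0.11 SE, limma adjusted p = 0.15). The 5p arm had values of 809, 996 and 965 in Control and at 876, 819 and 898 in CMS. Its groups overlapped through Control 1, the lowest of the 6 libraries, and its log2 difference was -0.09 ± 0.12 (SE; limma adjusted p = 0.656). That difference was -0.18 without Control 1 (limma adjusted p = 0.168), -0.03 without Control 2 and -0.06 without Control 3. The sum of both arms was 1323.3 ± 91.1 in Control and 1363.3 ± 81.8 in CMS (SD, n = 3 each).

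miR-134-5p, the arm that is known to act on Limk1, was at 244, 385 and 390 in Controls 1 to 3 and at 414, 359 and 422 in CMS 1 to 3. Control 1 was well below the other 5 libraries, which lay between 359 and 422. The means were 339.7 ± 82.9 and 398.3 ± 34.3 (SD, n = 3 each), and the log2 difference of 0.26 ± 0.21 (SE) did not pass (limma adjusted p = 0.482). Without Control 1 it was 0.04 (limma adjusted p = 0.849). The minor arm miR-134-3p was at 3, 5 and 4 in Control and at 6, 4 and 7 in CMS, with overlapping groups and a log2 difference of 0.41 ± 0.25 (SE; limma adjusted p = 0.344).

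Both arms of miR-485 were far lower in Control 1 than in the other Controls. miR-485-3p was at 145 in Control 1, at 374 and 390 in Controls 2 and 3, and at 245, 185 and 226 in CMS 1 to 3. The CMS libraries lay between Control 1 and the other Controls. The means were 303.0 ± 137.1 and 218.7 ± 30.7 (SD, n = 3 each), and the log2 difference of -0.35 ± 0.41 (SE) did not pass (limma adjusted p = 0.641). Without Control 1 it was -0.81 (limma adjusted p = 0.0512), a setting in which 8.53% of all rows passed, against 4.11% with all libraries. It was -0.13 without Control 2 (limma adjusted p = 0.882) and -0.10 without Control 3 (limma adjusted p = 0.931). miR-485-5p was at 135, 252 and 255 in Control and at 209, 193 and 212 in CMS. The order of the libraries was like that of the 3p arm, with Control 1 lowest and Controls 2 and 3 highest. Its log2 difference was -0.01 ± 0.27 (SE; limma adjusted p = 1.0), and -0.31 without Control 1 (limma adjusted p = 0.0878). That difference was 0.14 without Control 2 and 0.15 without Control 3. The log2 distance of Control 1 from the mean of the other Controls was -1.39 for miR-485-3p, -0.90 for miR-485-5p and -0.67 for miR-134-5p, against -0.08 for miR-381-3p.

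Arm use was compared because it is a ratio within a library, which a single scaling factor for that library does not change. The normalization is not given, and one that depends on the level could change the ratio. miR-134 was almost wholly 5p (98.8% ± 0.139 in Control and 98.6% ± 0.267 in CMS, SD, n = 3 each), and miR-381 almost wholly 3p, with a 5p share of at most 0.0594% in any library. miR-329 and miR-485 kept both arms. Over the 144 hairpins with both arms tested, the main arm held a median of 93.3% of the hairpin. Only 8 of these hairpins had a more even split than miR-485, whose main arm held 54.4%, and 20 had a more even split than miR-329, whose main arm held 66.5%.

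For miR-329 the 5p share was 66.1%, 71.1% and 71.7% in Controls 1 to 3 and 63.1%, 64.4% and 62.8% in CMS 1 to 3. All CMS libraries were below all Controls, with Control 1 the nearest to CMS. The log2 ratio of 5p to 3p averaged 1.20 in Control and 0.79 in CMS, a difference of -0.41 ± 0.19 (SE), which did not pass over the 144 hairpins (limma adjusted p = 0.19; 0.0532 without Control 1). That difference was -0.36 without Control 2 and -0.34 without Control 3. For miR-485 the 5p share was 48.2%, 40.3% and 39.5% in Control and 46.0%, 51.1% and 48.4% in CMS. Control 1 lay among the CMS libraries, and the difference in log2 ratio of 0.34 ± 0.21 (SE) did not pass (limma adjusted p = 0.286). For miR-134 the difference was -0.15 ± 0.21 (SE; limma adjusted p = 0.613). For miR-381 it was 0.64 ± 0.27 (SE; limma adjusted p = 0.155). This last ratio has values of 1 and 2 on its 5p side, whose own log2 difference was 0.00. Its difference is therefore that of the miR-381-3p level with the sign turned, and it is not a result about arm use. The ratio passed without Control 1 (0.86, limma adjusted p = 0.0386) and with a pseudocount of 10 (0.64, limma adjusted p = 0.0272). Under those settings 31.7% and 23.6% of all hairpins passed. Without Control 1 the log2 difference was -0.67 for miR-381-3p and 0.195 for miR-381-5p, whose value in Control 1 was 2. Part of the ratio there thus comes from rounded 5p values of 1 and 2. In all, 0 of 4 member hairpins passed, against 5.56% of the 144. At an unadjusted p under 0.05 there was 1 of 4, this ratio of miR-381, against 31.2%. Groups did not overlap for 1 of 4, miR-329, against 36.8% of the 144.

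**Figure D2:**
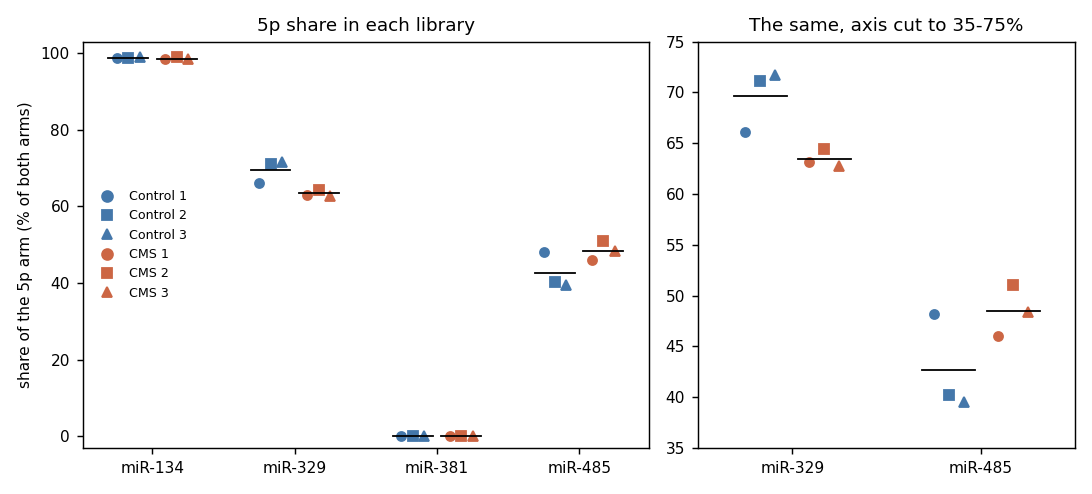
Share of the 5p arm in the sum of both arms, in percent, for the 4 hairpins (left) and for miR-329 and miR-485 on an axis from 35% to 75% (right), with 1 point per library and a black line at each group's mean. In miR-329 all CMS libraries lie at or under 64.4% and all Controls at or over 66.1%, while in miR-485 Control 1 (48.2%) lies among the CMS libraries.

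Whether the members moved alike was asked with the ratio of their main arms within each library, over 6 pairs. An exact two-sided permutation of 3 against 3 libraries cannot give a p below 0.1, so no pair could pass. The log2 ratio of miR-134-5p to miR-381-3p was -4.23, -3.74 and -3.55 in Controls 1 to 3 and -2.57, -3.26 and -2.99 in CMS 1 to 3. Groups did not overlap, and the difference of 0.90 was the largest of the 6 (exact permutation p = 0.1, adjusted p = 0.15). The ratio of miR-329-5p to miR-381-3p was higher in CMS by 0.55. That of miR-134-5p to miR-485-3p was higher by 0.61 and that of miR-134-5p to miR-329-5p by 0.35. Each was without overlap and had the same exact permutation p of 0.1 (adjusted p = 0.15). The pairs share arms, so they are not separate results, and miR-381-3p had groups without overlap on its own. The share of other pairs in the table without overlap was not computed. The ratio of miR-329-5p to miR-485-3p (0.26, exact permutation p = 0.5, adjusted p = 0.6) and that of miR-381-3p to miR-485-3p (-0.29, exact permutation p = 0.7, adjusted p = 0.7) overlapped between groups. With 1 library left out the first ranged from 0.05 (without Control 3) to 0.63 (without Control 1), and the second from -0.57 to 0.15 without the same libraries. By profile, among the 6 member arms with a mean of at least 10, the nearest to each other were miR-134-5p and miR-485-5p, whose centred log2 values differed by 0.158 (root mean square over the 6 libraries). Of these 6, miR-329-3p and miR-485-3p were farthest apart, at 0.596.

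The rest of the cluster gives the setting of the members. Its list was drawn up by name and does not match the 41 RefSeq genes from Mir379 to Mir410 exactly. It leaves out Mir3576, Mir3579, Mir3581, Mir3592, Mir3595 and Mir6331, and it holds miR-3072, which is not among those genes. The list held 59 rows, of which 50 were tested and none passed (limma adjusted p at least 0.0517), against 4.11% of all rows. At an unadjusted p under 0.05 there were 10 higher (20.0%) and 2 lower (4.0%), beside 17.7% and 5.63% of all rows, and the median log2 difference was 0.10, beside 0.08 over all rows. Of the list rows with a positive difference, the smallest p were those of miR-323-5p (0.80 log2, limma adjusted p = 0.0517), miR-543-5p (1.06, limma adjusted p = 0.0541) and miR-496-3p (0.65, limma adjusted p = 0.0809). Of the rows with a negative difference, they were those of miR-410-3p (-0.45, limma adjusted p = 0.162), miR-380-3p (-0.70, limma adjusted p = 0.187) and miR-154-3p (-0.50, limma adjusted p = 0.221). The difference of miR-543-5p rests on values near the smallest the table can hold, 2, 3 and 3 in Control and 8, 5 and 7 in CMS. The log2 difference of miR-381-3p (-0.64) lay within the range of the list, where 3 tested rows had a lower one: miR-380-3p, miR-376a-3p (-1.25) and miR-543-3p (-1.25), of which the last 2 were chosen after their values were seen. Unlike miR-381-3p, these 3 had overlapping groups. Their SE were larger, at 0.26, 0.74 and 0.54 in that order, against 0.16. Groups without overlap were not particular to miR-381-3p. Of the 50 tested list rows, 4 were lower in CMS without overlap, miR-410-3p and miR-154-3p among them, beside 6.24% of all rows. Another 10 of the 50 were higher without overlap, beside 19.6% of all rows. In Control 1, 34 of the 40 list rows with a mean of at least 10 were below the mean of the other Controls, with a median of -0.34. In CMS 2, 37 of the 40 were below the mean of the other CMS libraries, with a median of -0.30, so a low level across the list was not particular to Control 1.

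**Figure D3:**
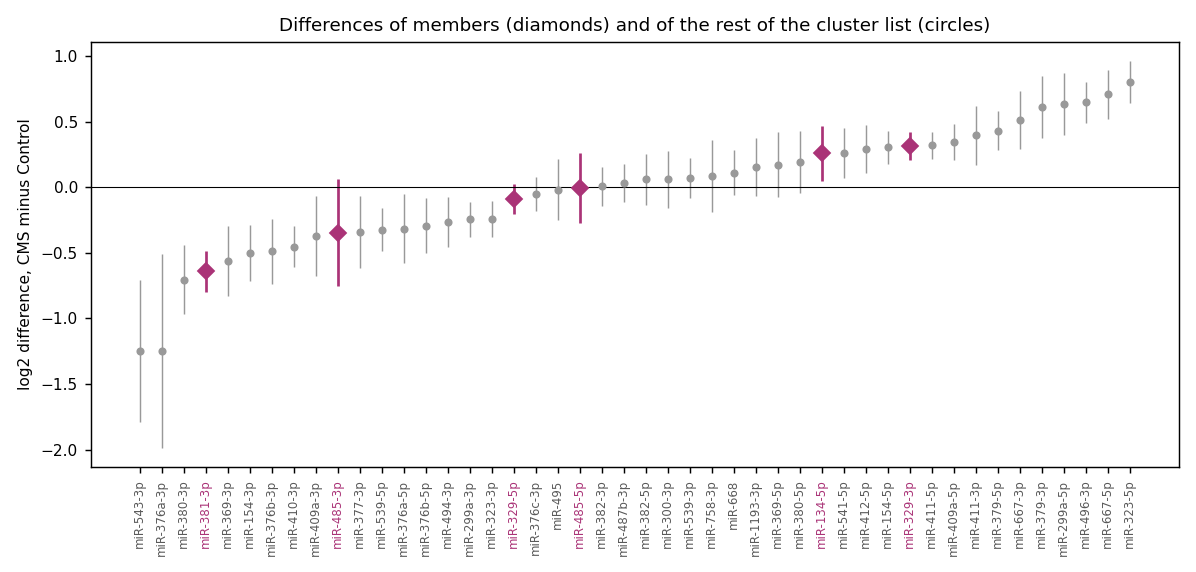
Log2 difference, CMS minus Control, with its SE, for the 6 member arms (purple diamonds) and the 40 other rows of the cluster list (grey circles) with a mean of at least 10, in order of the difference. The members are spread through the list, from miR-381-3p at -0.64 near the low end to miR-329-3p at 0.32.

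Set against the median log2 level of those 40 rows in the same library, miR-381-3p stood 4.90, 4.71 and 4.70 above it in Controls 1 to 3 and 3.43, 4.10 and 3.73 above it in CMS 1 to 3. Groups did not overlap, and the difference was -1.01 (exact permutation p = 0.1, the smallest possible, adjusted p = 0.2 over the 4 main arms). For miR-329-5p the distance above the median was 2.40, 2.34 and 2.45 in Control and 1.94, 2.03 and 1.83 in CMS, also without overlap (difference -0.46, exact permutation p = 0.1, adjusted p = 0.2). The differences of miR-485-3p (-0.72, exact permutation p = 0.2, adjusted p = 0.267) and of miR-134-5p (-0.12, exact permutation p = 0.5, adjusted p = 0.5) had overlapping groups. The reference matters here, because the median of the list itself was at 7.27 to 7.63 in Control and 7.65 to 7.98 in CMS, without overlap. How many of the 40 rows would have groups without overlap against it was not computed. With the mean of the list as reference the differences were -0.63 for miR-381-3p, -0.08 for miR-329-5p, -0.34 for miR-485-3p and 0.27 for miR-134-5p, so those of miR-381-3p, miR-329-5p and miR-485-3p were smaller and that of miR-134-5p turned its sign. The exact permutation p were then 0.1 for miR-381-3p and miR-134-5p, 0.5 for miR-329-5p, whose groups then overlapped, and 0.4 for miR-485-3p.

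**Figure D4:**
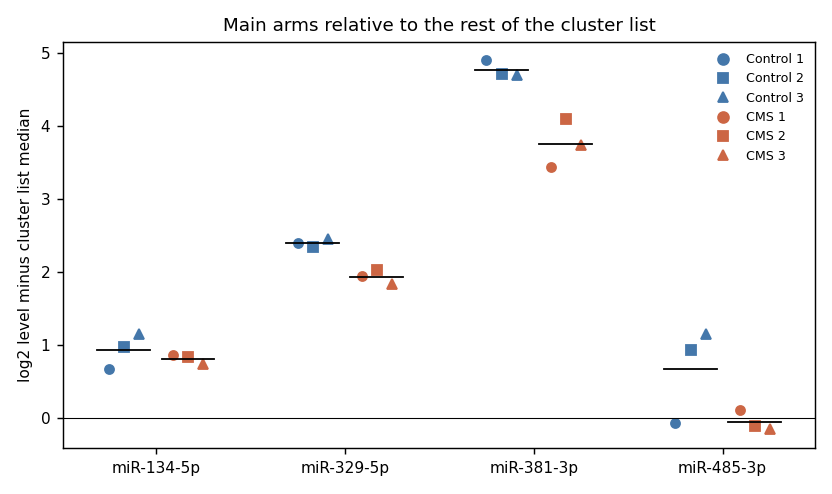
Log2 level of each main arm minus the median log2 level of the 40 other cluster list rows with a mean of at least 10, 1 point per library, with a black line at each group's mean and a thin line at 0. miR-381-3p lies between 4.70 and 4.90 in Control and between 3.43 and 4.10 in CMS.

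miRNAs of similar sequence were read beside miR-381-3p and miR-329-3p, since reads of near-identical miRNAs may be assigned to either. miR-300-3p, which differs from miR-381-3p by A4G, was at 1509, 2367 and 2027 in Controls 1 to 3 and at 1630, 2135 and 2361 in CMS 1 to 3. Its groups overlapped, with a log2 difference of 0.06 ± 0.22 (SE; limma adjusted p = 0.915). The log2 ratio of miR-381-3p to miR-300-3p was 1.60, 1.12 and 1.17 in Control and 0.60, 0.69 and 0.51 in CMS, without overlap (difference -0.70, exact permutation p = 0.1, the smallest possible). The sum of the 2 miRNAs was also without overlap, at 6740.7 ± 724.2 in Control and 5135.7 ± 903.2 in CMS (SD, n = 3 each; exact permutation p = 0.1), or 0.762 times the Control level. A read of miR-381-3p that carries the A4G change would equal the first 18 bases of miR-300-3p. How reads were divided between these miRNAs is not given in the sources used here, so the level of each is uncertain. miR-539-3p, which has the seed of miR-381-3p, was at 266, 358 and 313 in Control and at 306, 309 and 367 in CMS (log2 difference 0.07 ± 0.15 SE, limma adjusted p = 0.818). Its groups overlapped, and its highest value of 367 was far below the lowest of miR-381-3p. miR-362-3p, which has the seed of miR-329-3p, was at 20, 22 and 25 in Control and at 12, 19 and 17 in CMS. Here every CMS library was below every Control, opposite in sign to miR-329-3p, and the log2 difference of -0.47 ± 0.21 (SE) did not pass (limma adjusted p = 0.226).

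**Figure D5:**
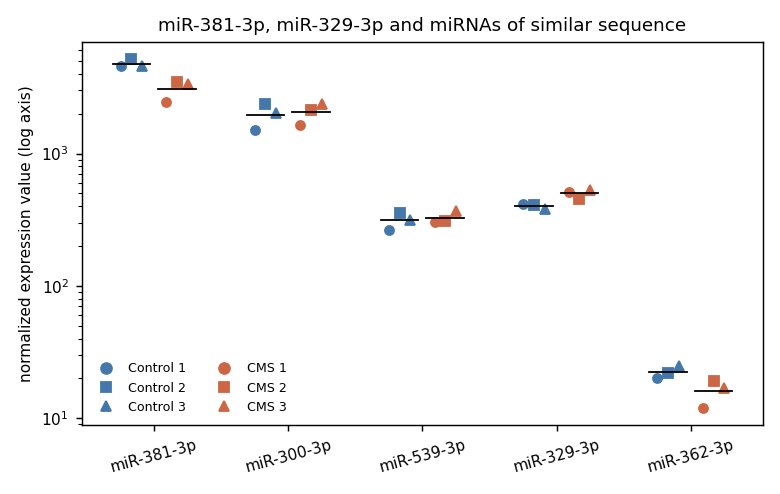
Normalized expression value (log axis) of miR-381-3p with miR-300-3p (1 base different) and miR-539-3p (same seed), and of miR-329-3p with miR-362-3p (same seed), 1 point per library and a black line at each group's mean. Only miR-381-3p, miR-329-3p and miR-362-3p, of these 5, have groups that do not overlap.

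The annotated miRNAs with the most similar profile were found for each main arm among the 346 others with a mean of at least 10, by the root mean square difference of centred log2 values over the 6 libraries. For miR-134-5p they were miR-380-5p (0.0631), miR-434-5p (0.102) and miR-412-5p (0.105), of which miR-380-5p and miR-412-5p are on the cluster list. For miR-329-5p they were miR-376c-3p of the cluster (0.0675), miR-421-3p (0.0738) and miR-1843b-5p (0.0756). For miR-381-3p they were miR-190a-5p (0.105), miR-92b-5p (0.137) and miR-335 (0.145), none of them on the cluster list. miR-335 was at 267, 321 and 339 in Control and at 191, 224 and 214 in CMS, lower in every CMS library (log2 difference -0.55, limma adjusted p = 0.0821). For miR-485-3p they were miR-132-5p (0.166), miR-708-3p (0.19) and miR-130a-3p (0.225), and all 3 had their lowest or second lowest value in Control 1. The level of miR-130a-3p is uncertain, since a predicted row of the table carries the same 6 values. The median distance over all 346 was 0.357 for miR-134-5p, 0.289 for miR-329-5p, 0.469 for miR-381-3p and 0.565 for miR-485-3p. With 6 libraries these orders are descriptions only.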

How the data were processed

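Per the labels' protocols, miRNA libraries from total RNA of 6 rats (3 Control, 3 CMS) were read on a NextSeq. Novoalign 2.07.11 is named in the submitters' processing notes. Trimming, genome build, annotation and normalization were not given in the sources used here. Values as deposited are treated as a score, a normalized expression value that the authors rounded to whole numbers. They do not behave as raw reads, since library sums differ by only 3.72% and, among rows whose group mean was 1 to 8, replicate variance averaged 0.471 (Control, 181 rows) and 0.53 (CMS, 195 rows) times the mean. Depth is therefore unknown and no counting interval is given. Blanks were taken as 0.

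Groups came from the sample titles. Members, lists and tests were chosen with earlier results of these data known. Levels were tested with limma-trend (limma 3.58.1, R 4.3.3) on log2(value + 1), which understates changes of low rows, over 657 annotated and predicted rows, with Benjamini-Hochberg adjustment. Arm ratios, log2((5p + 1)/(3p + 1)), were tested with limma over 144 hairpins. Single ratios were tested by exact permutation. The fits were run on simulated data with changes larger than those of the members, which does not show whether changes of the members' size would be found. Named are all members, up to 3 higher and 3 lower cluster list rows with the smallest p, the seed sharers, and the 3 most similar profiles per main arm. miR-300-3p was chosen after its values were seen, for its sequence. Sequences and gene order are from RefSeq (GRCr8, used for names, sequences and neighbours only). Of 694 annotated rows, 625 matched a mature sequence. Alternatives were other scalings (quantile, and a mean of log ratios trimmed by 30% of ratios and 5% of levels), filters, pseudocounts (0.1 and 10), variance models, annotated rows alone, another cluster reference, each library left out, and a replicate block.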

Additional observations from a re-analysis of the deposited data

How the results depend on the processing

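No member arm passed in any of the 15 alternatives of the level fit, in which all rows gave 1 to 55 calls, against 27. The log2 difference of miR-381-3p stayed between -0.75 and -0.48 (limma adjusted p 0.0526 to 0.242) and that of miR-329-3p between 0.20 and 0.38. miR-134-3p and miR-381-5p have no value with a minimum mean of 10, nor do the arm ratios of their hairpins. Quantile normalization and trimmed-mean rescaling shifted the median row by -0.12 and -0.11, and no member changed sign under them apart from miR-381-5p, which had no difference. Leaving out 1 library moved miR-485-5p between -0.31 and 0.15 and miR-485-3p between -0.81 and -0.10. With a pseudocount of 10 the arm ratio of miR-134 turned to 0.0906, and that of miR-381 passed (0.64), so 1 member hairpin passed, where 23.6% of all hairpins did. The log2 difference of miR-381-5p was 0.00 there too. Arm-ratio calls over all hairpins ranged from 1 to 45 across the alternatives, against 8. Over the libraries left out the ratio of miR-381 was 0.48 to 0.86 and 0 to 1 member hairpins passed. In the cluster list 1 row passed with a pseudocount of 0.1 and without the variance trend (miR-323-5p each time), and 0 to 1 over the libraries left out (miR-376a-3p without Control 1, miR-410-5p without Control 2). All values of miR-410-5p were 0 or 1. Against the mean of the cluster list miR-134-5p turned to 0.27. Samples of the same number did not deviate together (correlations of -0.11, -0.02 and -0.05), so the numbers were not taken as pairs. With the replicate block 1 row of the table passed and no member did (miR-381-3p limma adjusted p = 0.131). Unknown depth and rounding limit the arms with values under 10.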
